A study of Rattus norvegicus with 12 samples.

Results

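The oxidative phosphorylation subunit genes are the nuclear genes for the protein parts of the 4 respiratory chain complexes and of ATP synthase. They were taken from a table of raw read counts in rat striatum by their symbols: those that begin with *Ndufa*, *Ndufb*, *Ndufc*, *Ndufs* or *Ndufv* followed by a digit, *Sdha* to *Sdhd*, and those that begin with *Uqcr*, with *Cox4* to *Cox8* or with *Atp5*. A mean count of at least 10 over the 12 rats was also required. Of the 17337 genes in the table, 80 had such a symbol and 75 reached the mean count. By symbol, these 75 comprised 34 genes of complex I, 4 of complex II, 8 of complex III, 12 of complex IV and 17 of complex V. The 5 that fell short were *Cox8b* (mean count 8.67), *Cox6a2* (4.17), *Ndufa1* (0.50), and *Cox8c* and *Cox6c-ps1*, which had no count in any rat. The lowest gene inside the limit was *Atp5f1*, with a mean count of 29.6, and the highest was *Atp5b*, with 38973. Whether the low counts of *Ndufa1* and *Atp5f1* reflect the tissue or the assignment of reads to genes was not tested.

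All 12 rats were adult, male, wild-type Sprague–Dawley rats that had self-administered methamphetamine (MA) daily for 16 days, and each library came from the striatum of 1 rat. In the MA12 group (rats 21, 31, 4N and 7N) the tissue was taken 12 h after the last session, and in the MA24 group (rats 9N, 14N, 15N and 16N) 24 h after it. The third group (rats 9, 11, 12 and 13) is labelled non-addicted after the same number of days of MA. How these animals were chosen and when their tissue was taken is not given in the sources used here, and the saline group and the group without abstinence were not analysed here. MA12 and MA24 therefore differ in length of abstinence and in time of day by 12 h, and these cannot be told apart. All libraries carry 1 batch label. The rat number ends in N in every MA24 rat, in 2 of the 4 MA12 rats and in no non-addicted rat, and the meaning of the N is not given.

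Oxidative phosphorylation takes place at the inner membrane of the mitochondrion. Complex I oxidises NADH and complex II oxidises succinate, both pass electrons through ubiquinone to complex III, and cytochrome c carries them on to complex IV, which reduces oxygen. Complexes I, III and IV pump protons out of the matrix, and complex V (ATP synthase) lets them flow back through a rotating ring to make ATP. Most subunits are encoded in the nucleus and imported, and the remaining ones, encoded by mitochondrial DNA, were not analysed here. Neurons depend heavily on this pathway to restore ion gradients after firing. NRF1, the ETS factor GABP (subunit gene *Gabpa*), YY1 and ERRα (*Esrra*), with the coactivator PGC-1α (*Ppargc1a*), are known to drive many of these genes.

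Total counts lay between 17908962 and 23850284 per rat and did not differ detectably between groups (two-sided exact permutation test, p = 0.8 between MA24 and MA12, 0.6 between MA12 and the non-addicted rats and 0.629 between these and MA24, where 0.0286 is the smallest p possible). The 9 markers of striatal projection neurons were all detected. Levels are given as CPM, a gene's counts relative to the size of the library, scaled by TMM, a method that evens out differences in library composition. All p-values measure the spread between rats. CPM is not corrected for gene length, so levels are compared between rats and never between genes. In bulk tissue, fewer cells of a type and less RNA per cell cannot be told apart.

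Promoters of the members carried known binding motifs of these factors. All 75 symbols were matched to RefSeq (rat assembly GRCr8), 17 of them through an older symbol, and 64 had a promoter sequence of 300 bases, 250 before the transcription start and 50 after it. On both strands together, the NRF1 motif (GCGCA and GCGC with 1 base of any kind between them) was found in 14 of the 64 promoters (21.9%), against 4.71% of 27457 rat promoters and 9.33% of the 10146 promoters of genes tested in MA24 vs. MA12. The ETS motif CCGGAAG was found in 18 (28.1%, against 9.22% and 16.4%) and the YY1 motif AAGATGGCG in 10 (15.6%, against 1.93% and 3.42%). At least 1 of the 3 motifs was in 36 of the 64 (56.2%, against 14.3% and 25.9%). The median GC content of the members' promoters was 56.7%, between the 52.3% of all promoters and the 60.7% of those of the genes tested. A match is a run of letters and not a measured binding site.

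Shown here are 130 bases around the start, 100 before it and 30 after it, for 2 members that recur in the results below and for a pair of genes that encode the same mature protein of the ATP synthase ring. Capitals mark the motifs. *Cox8a* (chr1:213833594-213833723, minus strand) holds the ETS motif on the opposite strand at 2 places, and *Ndufs7* (chr7:10110469-10110598, minus strand) holds the YY1 motif just after the start. *Atp5g2* (chr7:135678189-135678318, minus strand) holds the NRF1 motif before the start, where it reads as the motif on both strands. *Atp5g3* (chr3:79220635-79220764, minus strand) holds the NRF1 motif on the opposite strand only, just after the start.
Cox8a: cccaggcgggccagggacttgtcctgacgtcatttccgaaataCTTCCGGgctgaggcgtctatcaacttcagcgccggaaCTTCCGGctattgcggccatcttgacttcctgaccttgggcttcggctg
Ndufs7: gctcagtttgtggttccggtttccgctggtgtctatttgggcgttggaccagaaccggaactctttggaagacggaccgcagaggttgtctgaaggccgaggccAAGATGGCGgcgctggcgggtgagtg
Atp5g2: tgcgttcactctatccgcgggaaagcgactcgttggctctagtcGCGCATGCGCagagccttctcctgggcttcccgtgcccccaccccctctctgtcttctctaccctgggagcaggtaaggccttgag
Atp5g3: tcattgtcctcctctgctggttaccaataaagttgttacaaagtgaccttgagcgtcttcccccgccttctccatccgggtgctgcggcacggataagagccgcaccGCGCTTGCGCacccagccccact

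Levels of the members varied little between rats of a group. The median SD of log2 CPM within groups was 0.105 over the 75 members, against 0.177 over the 12649 genes with a mean count above 4 and 0.115 over the 4409 genes with a mean count of at least 1000. *Ndufa10*, an accessory subunit of complex I, was the steadiest member (SD 0.065), followed by *Sdha* (0.068), the flavoprotein of complex II. The least steady were 4 with low mean counts: *Ndufa10l1* (1.20), *Atp5f1* (0.43), *Cox6b2* (0.40) and *Cox4i2* (0.30). All 7 members with a mean count below 1000 (these 4 with *Ndufa4l2*, *Ndufs6* and *Atp5s*) carry a larger counting error than the other 68. The spread of *Ndufa10l1* went beyond its counting error, which was 13.0% at its mean count.

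Summed over all 75 members, the level was 16433, 16385, 17497 and 17821 CPM in MA12 rats 21, 31, 4N and 7N, and 17854, 19831, 18375 and 18874 CPM in MA24 rats 9N, 14N, 15N and 16N. In the non-addicted rats 9, 11, 12 and 13 it was 18578, 16285, 16094 and 17787 CPM. The group means were 17034 ± 734, 18733 ± 842 and 17186 ± 1198 CPM (SD, n = 4). All MA24 rats were above all MA12 rats, but rats 7N and 9N nearly met, and the 2 MA12 rats with an N lay above the 2 without. The non-addicted rats split into a high and a low pair that spanned the MA12 range. As a share of all counts, with no scaling, the members took 1.73% ± 0.03 in MA12, 1.83% ± 0.09 in MA24 and 1.73% ± 0.10 in non-addicted rats. On this scale MA12 and MA24 overlapped, with rat 9N (1.740%) below rats 21 (1.742%) and 7N (1.763%).

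By complex, only the summed level of complex IV, the cytochrome c oxidase, kept all MA24 rats (4337 to 4867 CPM) above all MA12 rats (3811 to 4212 CPM), and it did so as an unscaled share of counts too (0.423% to 0.482% and 0.400% to 0.416%). Complex I ran from 4704 to 5028 CPM in MA12 and from 5013 to 5655 CPM in MA24. Complex II had 826 to 890 and 880 to 914 CPM, complex III 1731 to 1885 and 1875 to 2163 CPM, and complex V 5268 to 5838 and 5740 to 6265 CPM. In these 4 complexes the ranges overlapped.

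**Figure D1:**
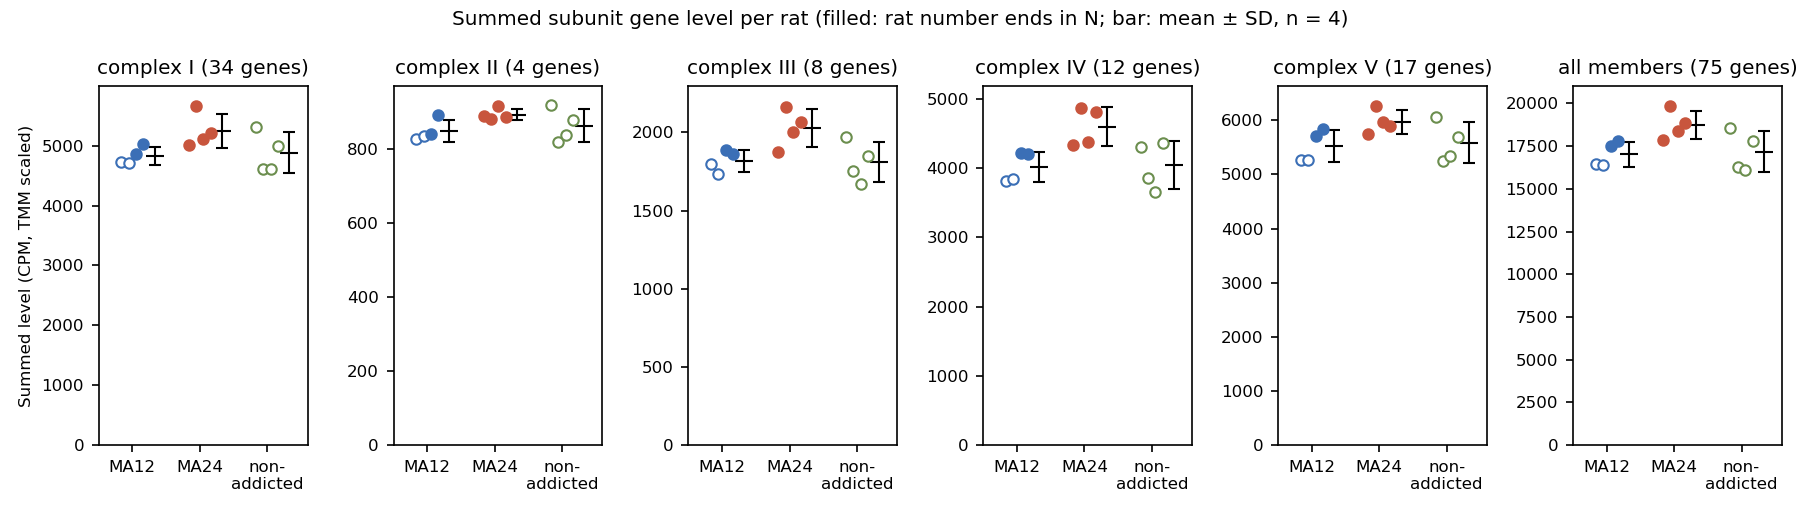
Summed level of the members of each complex and of all 75 members in each rat, in CPM scaled by TMM (y axis, from 0), by group (x axis); filled points are rats whose number ends in N, and bars are the mean ± SD of 4 rats. MA24 lay highest in mean in all 6 panels, and the groups MA12 and MA24 did not overlap for complex IV and, on this scale only, for all members.

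Single rats stood apart across many members at once. MA24 rat 14N topped the 12 rats for 38 of the 75 members and was above the median rat for 72 of them. The other MA24 rats 9N, 15N and 16N were above the median for 41, 65 and 50 members. MA12 rats 21, 31, 4N and 7N were above it for 20, 12, 30 and 43. Among the non-addicted rats, rats 9 and 13 were above it for 61 and 47 members, while rats 11 and 12 were above it for 3 and 6, and rat 12 had the lowest level of all for 26. The mean of centred log2 CPM over the members was -0.04 ± 0.04 in MA12, 0.09 ± 0.09 in MA24 and -0.05 ± 0.09 in non-addicted rats (SD, n = 4).

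**Figure D2:**
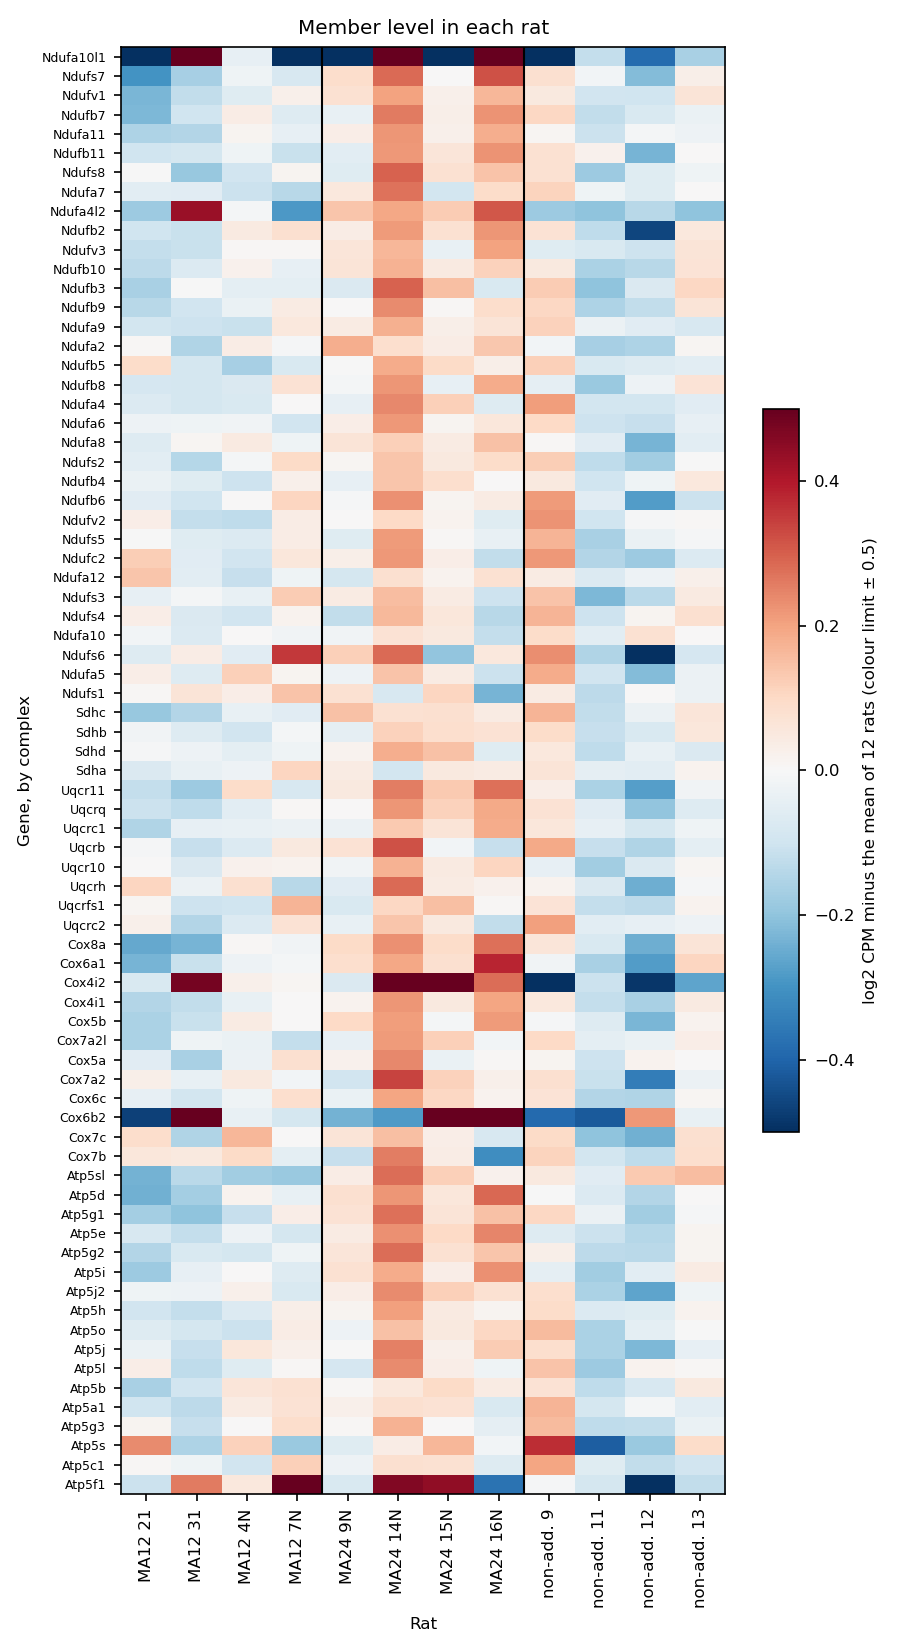
Level of each of the 75 members (rows, grouped by complex) in each of the 12 rats (columns) as log2 CPM minus the mean over the 12 rats, red above and blue below, with colours limited at ± 0.5. The column of MA24 rat 14N is mostly red (above the median rat for 72 genes), and those of non-addicted rats 11 and 12 are mostly blue (above it for 3 and 6).

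The comparison of MA24 with MA12 addresses how expression moves between 12 h and 24 h of abstinence. Small differences in 1 direction ran through all 5 complexes, and no single member passed the test. The log2 fold change (log2FC, MA24 minus MA12) was above 0 for 71 of the 75 members (94.7%), against 49.2% of the 12652 genes tested. The median over the members was 0.13, a 1.09-fold difference, with a range from -0.13 to 0.43, while the median over all genes tested was -0.0049. Genes with a mean count of at least 1000 had a median of 0.027 (n = 4412), and the 68 members among them one of 0.13.

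With edgeR's quasi-likelihood test and Benjamini-Hochberg adjustment over all genes tested, 0 of the 75 members had an adjusted p below 0.05, against 4.17% of all genes tested. With an unadjusted p below 0.05, 21 members (28%) were higher in MA24, against 10.7% of all genes. At that p, 0 members were lower, against 1541 of the 12652 genes tested. For 16 members (21.3%) every MA24 rat was above every MA12 rat, against 6.77% of all genes. With DESeq2, 9 members had an adjusted p below 0.05 (*Atp5d*, *Atp5e*, *Atp5g1*, *Atp5g2*, *Atp5sl*, *Cox6a1*, *Cox8a*, *Ndufs7* and *Uqcr11*), against 9.43% of all genes. All 9 were higher in MA24. Within the rats numbered with N (2 MA12 and 4 MA24), the median was 0.10, 64 of 75 members were above 0 and 4 had an unadjusted p below 0.05 in edgeR. Without MA24 rat 14N, the median was 0.09 and 60 members were above 0. Without MA12 rat 21 or without MA24 rat 14N, 13 were higher at an unadjusted p below 0.05. For these fits and that of the rats numbered with N, the share of all genes at that p was not computed.

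**Figure D3:**
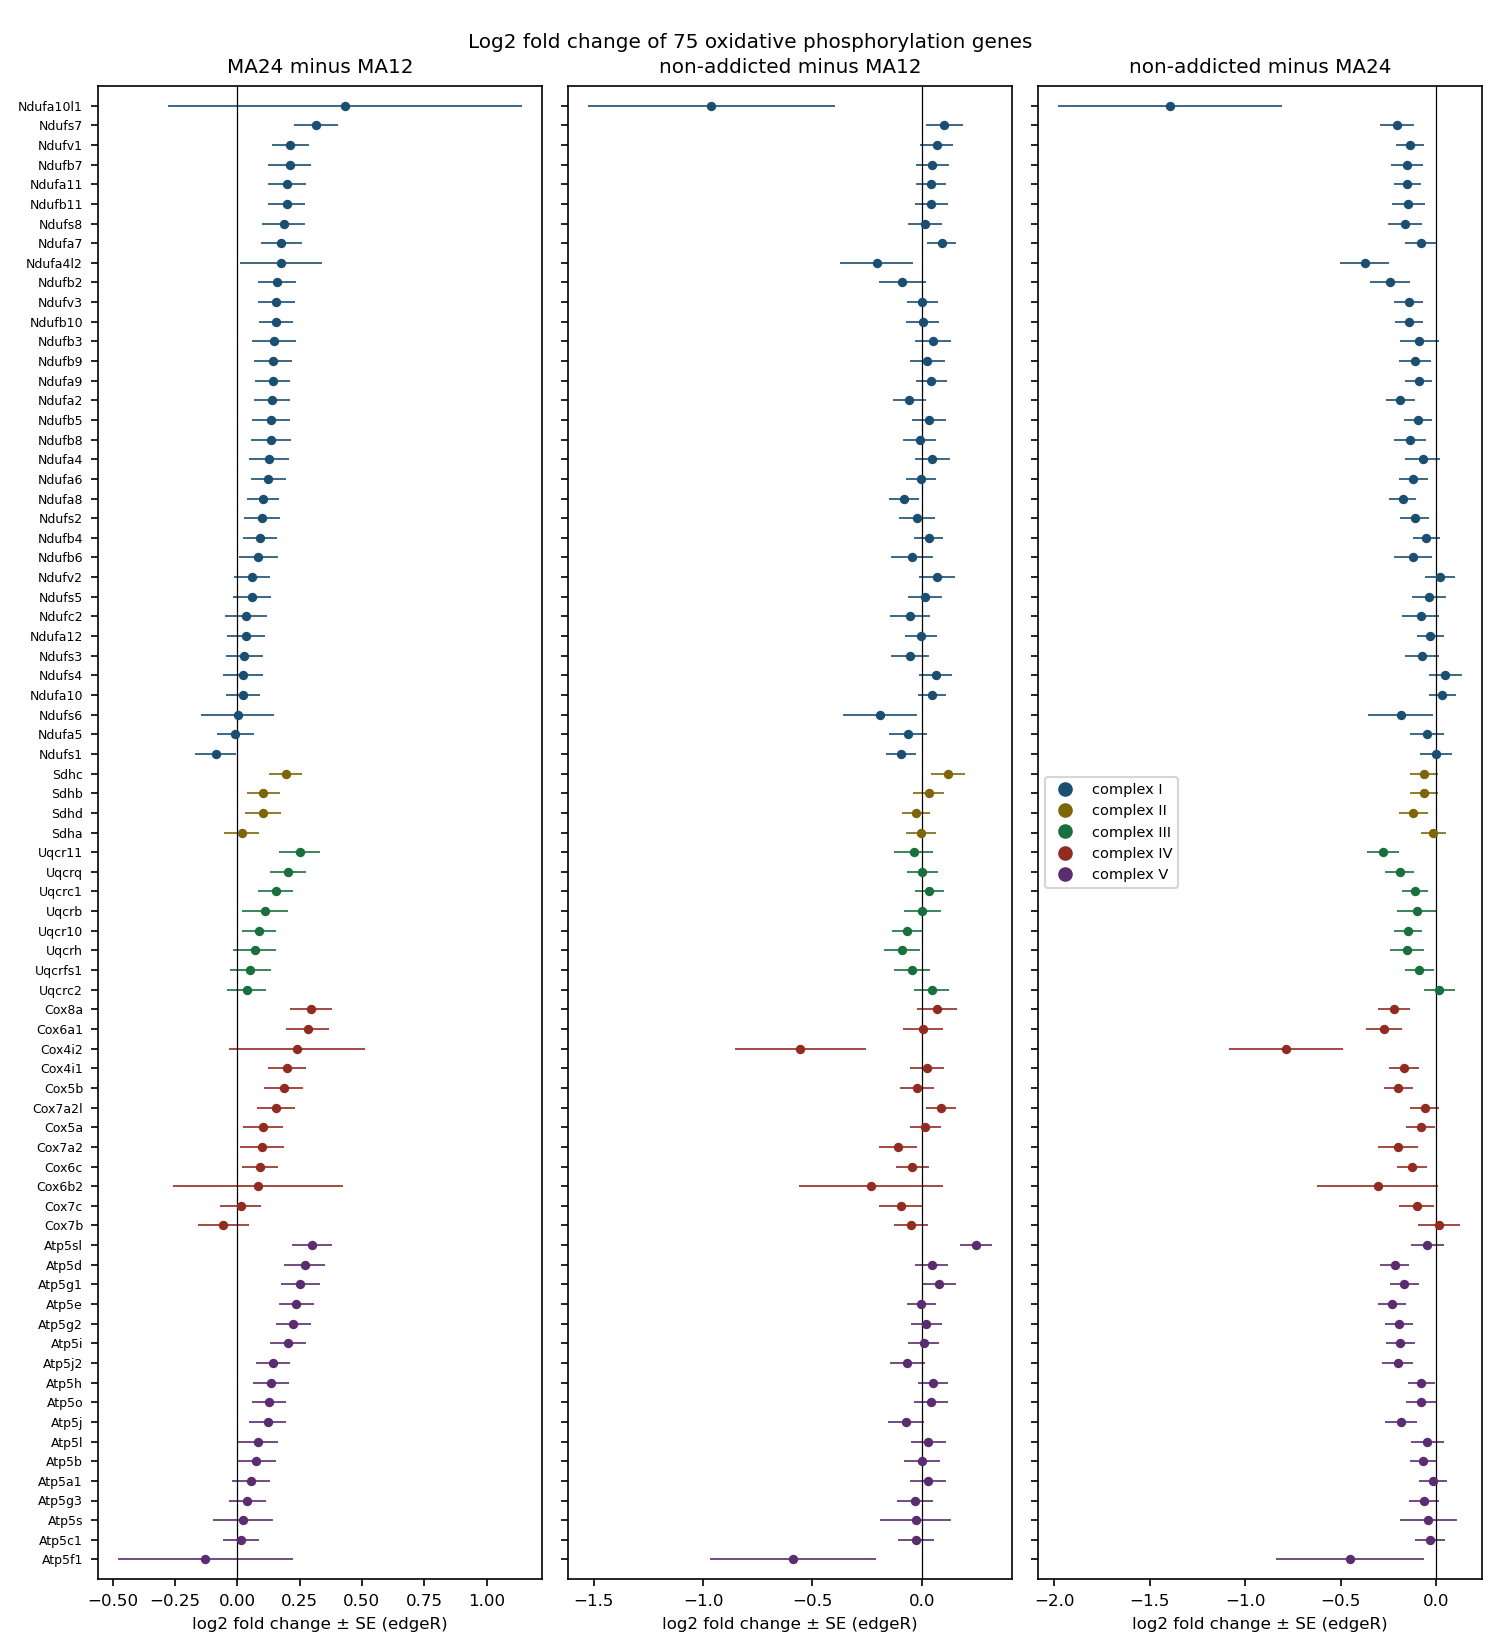
log2FC ± SE from edgeR (x axis) of each of the 75 members (y axis, coloured by complex and ordered within it by the first comparison) in MA24 minus MA12, non-addicted minus MA12 and non-addicted minus MA24, each panel with its own scale. Points lie right of 0 for 71 members in the first panel, on both sides in the second (39 above 0) and left of 0 for 70 in the third.

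In complex I, the entry point for NADH, 32 of 34 members were above 0 (median 0.13). The 7 core subunits, which hold the flavin and the iron-sulphur clusters, are the catalytic part and are shared with bacteria. Among these, *Ndufs7* had 156, 171, 189 and 181 CPM in MA12 rats 21, 31, 4N and 7N, and 203, 233, 192 and 238 CPM in MA24 rats 9N, 14N, 15N and 16N. The groups did not overlap, with rats 4N and 15N closest. The log2FC was 0.32 (SE 0.088, adjusted p = 0.0599, edgeR). *Ndufv1*, which binds NADH, had 280, 302, 315 and 335 CPM in MA12 and 346, 378, 334 and 368 CPM in MA24 (log2FC 0.21, SE 0.076, adjusted p = 0.115, edgeR). Here rat 15N fell just below rat 7N. *Ndufs1*, the largest core subunit, went the other way in mean, with 176, 183, 179 and 193 CPM in MA12 and 185, 166, 189 and 149 CPM in MA24 (log2FC -0.09, SE 0.082, adjusted p = 0.569, edgeR). MA24 rats 14N and 16N were the 2 lowest of these 8 rats for *Ndufs1*, although they were the 2 highest for *Ndufs7*.

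The accessory subunits surround this core and are needed for its assembly and stability. Of the 26 counted here, 25 were above 0 (median 0.13). For 4 every MA24 rat was above every MA12 rat (*Ndufa2*, *Ndufa6*, *Ndufa11* and *Ndufb10*), against 6.77% of all genes. The exception below 0 was *Ndufa5*, at -0.0085. *Ndufa10l1*, a copy of *Ndufa10*, had the highest log2FC of all members (0.43, SE 0.71, adjusted p = 0.763, edgeR), which rested on a few rats. It had 6.66 and 7.39 CPM in MA24 rats 14N and 16N and 7.52 CPM in MA12 rat 31, and between 0.87 and 1.93 CPM in the other 9 rats. Reads of such near copies may be divided between them by the counting, so its level is uncertain. *Ndufa4* carries a complex I name but is now assigned to complex IV, and its log2FC was 0.13.

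In complex II, the succinate dehydrogenase of the citric acid cycle, all 4 members were above 0 (median 0.10). *Sdhc*, a membrane anchor, had 114, 117, 127 and 125 CPM in MA12 and 144, 137, 137 and 134 CPM in MA24, with no overlap (log2FC 0.19, SE 0.067, adjusted p = 0.108, edgeR). *Sdhb*, the iron-sulphur subunit, had a log2FC of 0.10 (SE 0.066, adjusted p = 0.363, edgeR). *Sdha*, the catalytic flavoprotein, had 401, 411, 415 and 455 CPM in MA12 and 435, 396, 437 and 435 CPM in MA24 (log2FC 0.02, SE 0.071, adjusted p = 0.913, edgeR). Its 95% confidence interval ran from -0.13 to 0.17. Rat 14N, the highest rat for most members, was the lowest of all 12 rats for *Sdha*.

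In complex III, the cytochrome bc1 complex, all 8 members were above 0 (median 0.10). *Uqcr11*, a small accessory subunit, had 550, 527, 637 and 566 CPM in MA12 and 619, 714, 655 and 724 CPM in MA24, where rat 4N lay above rat 9N (log2FC 0.25, SE 0.082, adjusted p = 0.0911, edgeR). The core protein *Uqcrc1* had 0.15 (SE 0.071, adjusted p = 0.212, edgeR) and *Uqcrfs1*, the Rieske iron-sulphur protein that hands on electrons, had 0.05 (SE 0.082, adjusted p = 0.754, edgeR). None of the 8 separated the groups, while 6.77% of all genes were higher in every MA24 rat.

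In complex IV, 11 of 12 members were above 0 (median 0.13). *Cox8a*, a small membrane subunit, had 527, 536, 632 and 622 CPM in MA12 and 672, 738, 671 and 762 CPM in MA24. Every MA24 rat was above every MA12 rat, and the MA12 rats with an N were closer to MA24 than those without (log2FC 0.30, SE 0.084, adjusted p = 0.0621, edgeR). *Cox6a1*, the non-muscle form of a subunit that adjusts the enzyme's activity, had 855, 928, 985 and 996 CPM in MA12 and 1063, 1147, 1062 and 1306 CPM in MA24, again without overlap (log2FC 0.28, SE 0.086, adjusted p = 0.0772, edgeR). *Cox4i1*, the main form of a subunit that binds ATP, also separated the groups (log2FC 0.20, SE 0.076, adjusted p = 0.137, edgeR). *Cox5a* overlapped (log2FC 0.10, SE 0.080, adjusted p = 0.471, edgeR), and *Cox7b* was the member below 0 (-0.06).

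In complex V, 16 of 17 members were above 0 (median 0.13). For 7 every MA24 rat was above every MA12 rat, against 6.77% of all genes. Of these 17, *Atp5sl*, which is 1 of the 7, and *Atp5s* were classed as named after ATP synthase only. The head, where ATP is made, has 5 genes, all above 0. *Atp5e*, its smallest subunit, had 182, 177, 189 and 181 CPM in MA12 and 198, 226, 206 and 228 CPM in MA24 (log2FC 0.24, SE 0.070, adjusted p = 0.0698, edgeR). *Atp5d*, which with *Atp5e* forms the foot of the rotating stalk, had 245, 258, 293 and 282 CPM in MA12 and 307, 338, 301 and 354 CPM in MA24 (log2FC 0.27, SE 0.081, adjusted p = 0.0760, edgeR). Both separated the groups. The catalytic ring of the head differed less, at 0.05 for *Atp5a1* (SE 0.075, adjusted p = 0.718, edgeR) and 0.08 for *Atp5b* (SE 0.077, adjusted p = 0.595, edgeR), and its ranges overlapped. Among the rats numbered with N, *Atp5b* had a log2FC of -0.02.

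The c-ring of complex V turns as protons pass, and its identical subunits come from 3 genes that differ only in the peptide removed after import. *Atp5g1* had 252, 246, 261 and 290 CPM in MA12 and 298, 343, 296 and 313 CPM in MA24. *Atp5g2* had 228, 240, 238 and 249 CPM in MA12 and 263, 307, 266 and 278 CPM in MA24. Both separated the groups, with a log2FC of 0.25 and 0.22. *Atp5g3*, with 317, 290, 315 and 333 CPM in MA12 and 315, 354, 315 and 304 CPM in MA24, did not, and its log2FC was 0.04 (95% confidence interval -0.12 to 0.20). The difference between these genes was not tested. *Atp5f1*, a peripheral stalk gene, was the lowest of all members at -0.13 (SE 0.35, adjusted p = 0.866, edgeR), from 14 to 42 counts per rat.

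The member with the smallest p was *Atp5sl*. It had 44.4, 47.6, 46.3 and 45.9 CPM in MA12 and 53.6, 63.4, 56.8 and 53.0 CPM in MA24, with no overlap (log2FC 0.30, SE 0.079, adjusted p = 0.0501, edgeR). Its symbol recalls ATP synthase, but it is known as *Dmac2*, an assembly factor of complex I. Under 6 of 18 other settings its adjusted p was below 0.05, at 0.0130 with DESeq2 and from 0.0335 to 0.0496 with edgeR, and under the other 12 it lay between 0.0506 and 0.268.

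**Figure D4:**
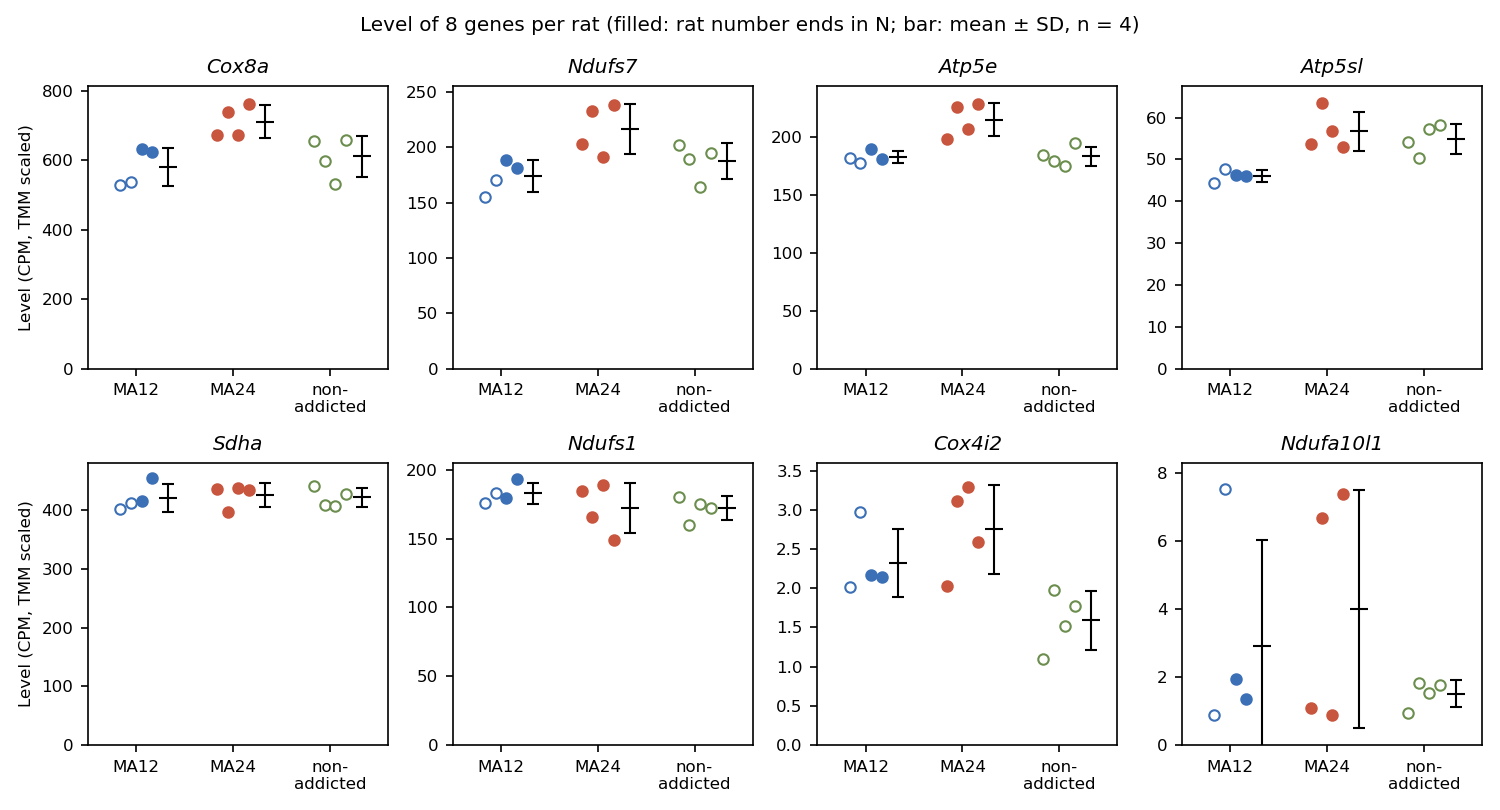
Level in CPM scaled by TMM (y axis, from 0, each panel with its own scale) of 8 members in each rat, by group (x axis); filled points are rats whose number ends in N, and bars are the mean ± SD of 4 rats. MA24 separates from MA12 in the upper 4 panels, and *Sdha*, *Ndufs1*, *Cox4i2* and *Ndufa10l1* overlap (the lower end of 1 bar for *Ndufa10l1* is cut at 0).

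Other genes of the pathway were counted from lists. Of 13 electron carrier genes tested (cytochromes c and c1, electron transfer flavoproteins and ubiquinone synthesis), 10 were above 0 (median 0.12), 0 passed the edgeR test and 4 were higher at an unadjusted p below 0.05. Of 39 assembly factors, which build the complexes without staying in them, 21 were above 0 (median 0.0085), 0 passed and 2 were higher at an unadjusted p below 0.05. Of 15 enzymes of the citric acid cycle and pyruvate dehydrogenase, which supply NADH and succinate, 6 were above 0 (median -0.0080). *Dlat*, the core of pyruvate dehydrogenase, fell, from 98.7, 102, 105 and 107 CPM in MA12 to 85.8, 76.2, 87.1 and 82.6 CPM in MA24 (log2FC -0.32, SE 0.071, adjusted p = 0.0329, edgeR). Of 12 other mitochondrial proteins, such as porins, import receptors and nucleotide carriers, 8 were above 0 (median 0.05), and 0 passed with or without adjustment.

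**Figure D5:**
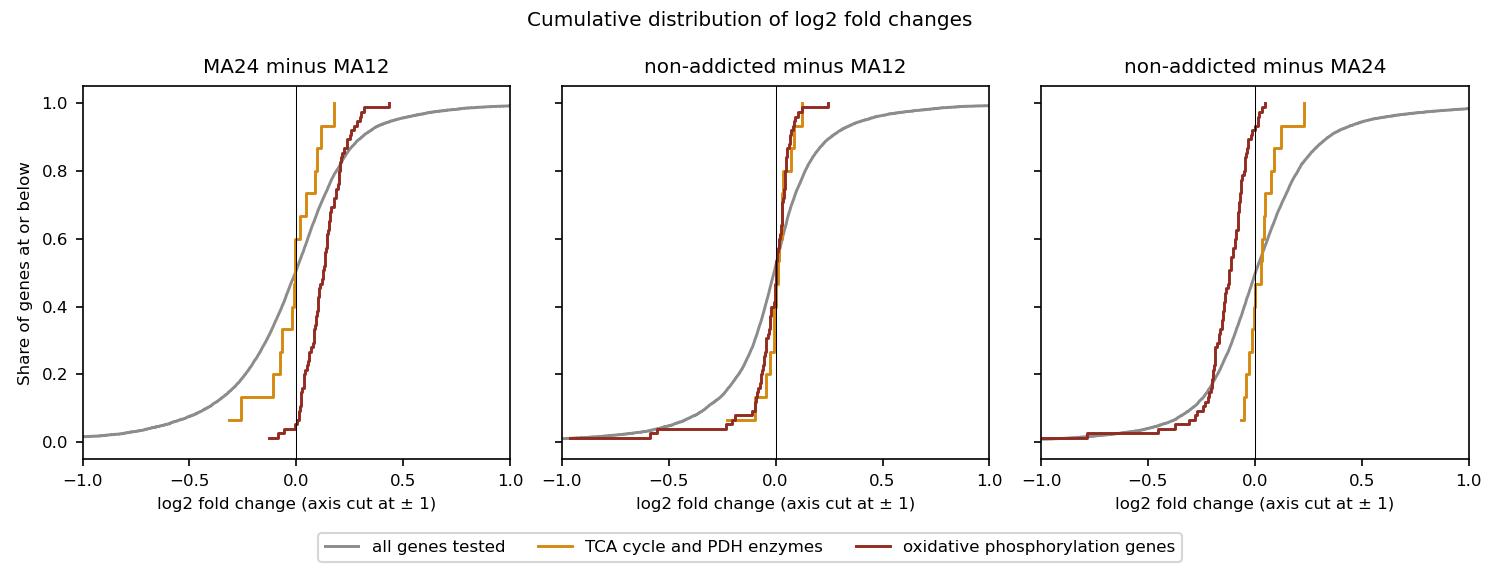
Share of genes (y axis) with a log2FC at or below the value on the x axis (cut at ± 1) in the 3 comparisons, for all genes tested, the 75 members, and 15 citric acid cycle and pyruvate dehydrogenase enzymes. In MA24 minus MA12 the members' curve is shifted to the right (median 0.13) and the enzymes' curve is not (median -0.0080).

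The regulators did not run with the members. Of 13 tested, 3 were above 0 (median -0.10) and 0 passed the edgeR test, while 1 was higher and 3 were lower at an unadjusted p below 0.05. *Gabpa* had 30.8, 29.4, 27.4 and 31.2 CPM in MA12 and 21.6, 24.5, 25.5 and 20.7 CPM in MA24, with every MA24 rat below every MA12 rat (log2FC -0.36, SE 0.098, adjusted p = 0.0550, edgeR). *Ppargc1a* had 15.2, 13.1, 12.7 and 12.3 CPM in MA12 and 11.4, 8.83, 10.5 and 8.23 CPM in MA24, also with no overlap (log2FC -0.45, SE 0.15, adjusted p = 0.0911, edgeR). The log2FC of *Tfam*, which packages and transcribes mitochondrial DNA, was -0.23 (SE 0.10, adjusted p = 0.199, edgeR), that of *Nrf1* -0.18 (SE 0.16, adjusted p = 0.534, edgeR) and that of *Esrra* 0.09 (SE 0.083, adjusted p = 0.577, edgeR). *Polrmt*, the mitochondrial RNA polymerase, was the regulator that lay higher in every MA24 rat, with 30.8, 38.5, 38.8 and 42.8 CPM in MA12 and 46.5, 49.8, 44.0 and 59.9 CPM in MA24 (log2FC 0.41, SE 0.12, adjusted p = 0.0624, edgeR).

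Ribosomal protein genes lay on the same side. Of 78 cytosolic ribosomal protein genes, chosen by symbol and mean count as the members were, 75 were above 0 (median 0.15), and 1 passed the test (*Rpl36*, log2FC 0.35, adjusted p = 0.0369, edgeR). Of 66 mitochondrial ribosomal protein genes, 52 were above 0 (median 0.08), and *Mrpl38* passed (log2FC 0.34, adjusted p = 0.0465, edgeR). The scaling also bears on small differences of this kind. With library totals in place of TMM, the median of all genes moved to -0.06, that of the members to 0.07, and 58 of the 75 stayed above 0.

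The comparison of non-addicted with MA12 rats showed no common direction among the members. The log2FC (non-addicted minus MA12) was above 0 for 39 of 75 (52%), against 48% of the 12657 genes tested, and the median was 0.0028. With edgeR, 0 members passed an adjusted p below 0.05, against 0.0395% of all genes. DESeq2 called 0 members, against 1.82% of all genes. At an unadjusted p below 0.05, 1 member (1.33%) was higher, against 5.29% of all genes. At that p, 0 members were lower, against 852 of the 12657 genes tested. The member that was higher was also the 1 that lay higher in every non-addicted rat, against 3.38% of all genes. This was *Atp5sl*, with 54.1, 50.3, 57.2 and 58.1 CPM in non-addicted rats 9, 11, 12 and 13 (log2FC 0.25, SE 0.073, adjusted p = 0.190, edgeR), above the MA12 range of 44.4 to 47.6 CPM. With only the rats numbered without N (2 MA12 and 4 non-addicted), 50 members were above 0 and the median was 0.05. *Sdhc* followed at 0.12 (SE 0.078, adjusted p = 0.587, edgeR) and *Ndufs1* was at -0.10 (SE 0.067, adjusted p = 0.630, edgeR).

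For the catalytic and core genes the levels in non-addicted rats overlapped those of MA12. *Ndufv1* had a log2FC of 0.07 (95% confidence interval -0.10 to 0.23) and *Cox4i1* one of 0.02. *Sdha* had 421 ± 23.6 CPM in MA12 and 422 ± 16.2 CPM in non-addicted rats, and *Atp5b* 1830 ± 148 and 1839 ± 123 CPM (SD, n = 4). *Atp5f1* (log2FC -0.59, SE 0.38, adjusted p = 0.592, edgeR) and *Ndufa10l1* (-0.96, SE 0.56, adjusted p = 0.545, edgeR) had the lowest values of the members. Both have low mean counts, and *Ndufa10l1* had 180 counts in MA12 rat 31. Without MA12 rat 31, the value of *Ndufa10l1* turned to 0.12.

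In non-addicted against MA24 rats the members again lay mostly on 1 side. This comparison shares the MA24 rats with the first, so they are not independent, and each is given by its own values. No non-addicted and every MA24 rat number ends in N, so group and kind of number cannot be told apart here. The log2FC (non-addicted minus MA24) was below 0 for 70 of 75 members (93.3%), against 49.5% of the 12640 genes tested, with a median of -0.12 and a range from -1.39 to 0.05. With edgeR, 0 members and 0% of all genes passed an adjusted p below 0.05, while 2229 genes had an unadjusted p below 0.05. DESeq2 called 1 member, *Uqcr11* (adjusted p = 0.0496), and 3.3% of all genes. At an unadjusted p below 0.05 in edgeR, 19 members (25.3%) were lower in non-addicted rats, against 8.12% of all genes. At that p, 0 members were higher, against 1202 of the 12640 genes tested. For 10 members (13.3%) every non-addicted rat was below every MA24 rat, against 4.49% of all genes. The count of 19 went to 8 without MA24 rat 14N, to 8 without rat 16N, to 11 without non-addicted rat 11 and to 7 without rat 12. The share of all genes at an unadjusted p below 0.05 was not computed for these smaller fits. Whether all genes fell alike is therefore not known.

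By complex, the median log2FC was -0.12 in complex I (31 of 34 below 0), -0.06 in complex II (4 of 4), -0.13 in complex III (7 of 8), -0.18 in complex IV (11 of 12) and -0.08 in complex V (17 of 17). *Uqcr11* had 612, 536, 494 and 592 CPM in non-addicted rats 9, 11, 12 and 13, all below the MA24 range of 619 to 724 CPM (log2FC -0.28, SE 0.083, adjusted p = 0.138, edgeR). *Atp5e* had 184, 179, 175 and 194 CPM against 198 to 228 CPM in MA24 (log2FC -0.23, SE 0.072, adjusted p = 0.148, edgeR). *Cox8a* had 656, 597, 531 and 658 CPM against 671 to 762 CPM (log2FC -0.22, SE 0.082, adjusted p = 0.202, edgeR). These 3 and *Atp5d* (log2FC -0.22, SE 0.074, adjusted p = 0.172, edgeR) separated the groups, and rat 12 was the lowest of the 12 rats in level of *Uqcr11* and *Atp5e*. *Cox6a1* overlapped (log2FC -0.27, SE 0.094, adjusted p = 0.178, edgeR). *Ndufs4*, an accessory subunit of complex I, was the highest of the members at 0.05, and *Sdha* was at -0.01. The cytosolic ribosomal protein genes ran the same way here, with 72 of 78 below 0 (median -0.12).

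The forms of subunits known from other tissues or cell types were scarce in counts. *Cox4i2*, a form of subunit 4 linked to low oxygen and found in vessel-wall cells, had 1.09, 1.97, 1.52 and 1.77 CPM in non-addicted rats, 2.02, 2.97, 2.16 and 2.14 CPM in MA12 and 2.02, 3.11, 3.29 and 2.58 CPM in MA24. Every non-addicted rat was below every rat of the other groups, though the gap between rats 11, 21 and 9N was small. The log2FC was -0.56 against MA12 (SE 0.30, adjusted p = 0.502, edgeR), -0.79 against MA24 (SE 0.30, adjusted p = 0.204, edgeR), and 0.24 in MA24 vs. MA12 (SE 0.27, adjusted p = 0.647, edgeR). *Ndufa4l2*, a hypoxia-induced relative of *Ndufa4* also found in pericytes, had 8.54, 8.43, 8.82 and 8.43 CPM in non-addicted rats, 8.54, 13.1, 9.64 and 7.96 CPM in MA12 and 10.7, 11.1, 10.6 and 12.0 CPM in MA24. It separated non-addicted from MA24 rats (log2FC -0.37, SE 0.13, adjusted p = 0.177, edgeR) and overlapped in the other comparisons. *Cox6b2*, a testis form, overlapped throughout (log2FC 0.08, SE 0.34, adjusted p = 0.915 in MA24 vs. MA12, edgeR).

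Markers of vessel cells lay lower in the same rats. Of 5 mural cell markers, 5 were below 0 in each contrast of non-addicted rats, and their summed level was 66.8 to 92.3 CPM in non-addicted, 98.9 to 160 CPM in MA12 and 90.5 to 113 CPM in MA24 rats. Of 4 endothelial markers, 4 were below 0 in both contrasts, with summed levels of 266 to 379, 359 to 465 and 431 to 481 CPM in the same order. The mural marker *Rgs5* fell from MA12 to MA24 (log2FC -0.72, adjusted p = 0.0374, edgeR), and all 5 mural markers were below 0 there (median -0.23), while *Cox4i2* and *Ndufa4l2* were above 0.

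Markers of other cells were compared between the groups as well. In MA24 vs. MA12, the 5 pan-neuronal markers summed to 1602 to 1890 CPM in MA24 and 1983 to 2137 CPM in MA12, so that every MA24 rat was below every MA12 rat, although 2 of the 5 were above 0 (median -0.14). The 9 striatal projection neuron markers overlapped, at 16415 to 18160 and 13713 to 17598 CPM, with 5 of 9 above 0 (median 0.05). Of 5 oligodendrocyte markers, 4 were above 0 (median 0.23), with sums of 17091 to 19961 CPM in MA24 and 11341 to 20561 CPM in MA12. Of 4 ependymal markers, 4 were below 0 (median -0.34). Astrocyte and microglia markers were mixed, with 2 of 5 and 3 of 5 above 0. Of these lists, 0 genes passed the edgeR test in this comparison.

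In non-addicted rats, the pan-neuronal sum was 1760 to 2163 CPM, that of projection neurons 13746 to 16643 CPM and that of oligodendrocytes 10951 to 16349 CPM. The last was below every MA24 rat, and all 5 oligodendrocyte markers were lower at an unadjusted p below 0.05. Markers of the ventricle lining and of the hypothalamus ran the other way against MA24: 4 of 4 ependymal markers were above 0 (median 0.99, all 4 at an unadjusted p below 0.05), as were 3 of 3 tested for choroid plexus (median 1.20) and 3 of 3 for hypothalamus (median 1.48). Other regions did not share this: 0 of 2 cortical neuron markers tested (median -0.37) and 2 of 3 thalamus markers (median 0.15) were above 0. Against MA12, 0 genes of the ependymal, choroid plexus, hypothalamus and oligodendrocyte lists passed the edgeR test. Of 4 ependymal markers, 4 were above 0 (median 0.54), as were 3 of 3 for hypothalamus (median 2.16) and 2 of 3 for choroid plexus (median 0.76). For cortical neurons 1 of 2 was above 0 there (median 0.19), and for thalamus 1 of 3 (median -0.07). All 5 oligodendrocyte markers were below 0 against MA12 (median -0.15). The ependymal sum was 39.2 to 101 CPM in non-addicted, 26.9 to 71.5 CPM in MA12 and 28.1 to 45.2 CPM in MA24 rats. The choroid plexus and hypothalamus sums reached 20.7 and 13.0 CPM at most in non-addicted rats, against 3.21 and 2.90 CPM in MA24, and 1 of the 4 hypothalamus markers was at 0 in every rat. The part of cell makeup and of dissection in the members' values was not tested.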

How the data were processed

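Striatal mRNA of 12 rats was sequenced with a kit that does not mark strand. The authors trimmed reads (Cutadapt 1.18 in the submitters' processing notes), aligned them to rn6 with STAR 2.7.0e, counted them with featureCounts (the notes also list HTSeq 0.12.4) and deposited raw counts per gene. How reads with several positions were counted is not given in the sources used here, so overlapping genes and near copies are uncertain.

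From these counts, each pair of groups was fitted alone in edgeR 4.0.16 (R 4.3.3) with TMM factors and the quasi-likelihood test. Genes whose mean count exceeded 4 in the 8 rats entered, and p-values were adjusted over all of them by Benjamini-Hochberg. The study's removal of the 15% of genes with the lowest variance was an alternative only, since it drops members for being constant. Centred levels used log2 CPM (prior count 2). Counting error was 18.4% for *Atp5f1* and 0.507% for *Atp5b* at their mean counts. The fits were tested on simulated counts. Rats of 1 group differed beyond sampling noise (chi-square per degree of freedom 9.96 to 28.9 over 18 pairs), so each was 1 replicate.

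Named were anchor genes of each complex, forms of other tissues, the 6 members with the smallest p, the highest and the lowest in each comparison, 5 regulators and up to 3 genes per list. Other genes, such as *Atp5g1* to *Atp5g3*, *Ndufa5*, *Cox7b*, *Rpl36* and *Mrpl38*, and the ribosomal lists were added after their values were seen. The members and lists were chosen with earlier results of these data known. Alternatives were DESeq2 1.42.0, other scalings and filters, all 3 groups in 1 fit, each rat left out, and the kind of rat number. Promoters and names came from RefSeq (GRCr8).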

Additional observations from a re-analysis of the deposited data

Results flagged for a closer look

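Screened were 35 values in 3 groups (105 sets of 4 rats). These were levels of named members and regulators, and summed levels per complex and over all members. In 7 sets, each of a single gene, 1 rat was far from the other 3 by Dixon's test, where chance alone gives about 5.25. *Sdha* in MA24 rat 14N was at 395.9 CPM, with the others between 434.8 and 436.8 CPM. *Uqcrc1* in MA12 rat 21 was at 288.6 CPM, with the others from 310.8 to 313.6 CPM. *Cox5a* in non-addicted rat 11 was at 195.3 CPM, with the others from 210.4 to 212.6 CPM. *Esrra* in MA24 rat 16N was at 194.3 CPM, with the others from 167.6 to 170.5 CPM. The remaining 3 are genes with low mean counts. *Atp5f1* in non-addicted rat 12 was at 0.574 CPM (the others 1.249 to 1.354), *Cox4i2* in MA12 rat 31 at 2.967 CPM (2.02 to 2.164), and *Ndufa10l1* in the same rat at 7.521 CPM (0.8837 to 1.929). For *Ndufa10l1* this was 180 counts, against 21, 41 and 24 in MA12 rats 21, 4N and 7N. That gap is wider than its counting error (13.0% at its mean count).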

How the results depend on the processing

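Over the settings tried, every median of the members in MA24 vs. MA12 (0.07 to 0.17) and in non-addicted vs. MA24 (-0.17 to -0.08) kept its sign, while that in non-addicted vs. MA12 ran from -0.04 to 0.05. The count of members with an adjusted p below 0.05 in MA24 vs. MA12 was 0 in the fit reported, against 4.17% of all genes. It was 9 with DESeq2, which called 9.43% of all genes. With all 3 groups in the fit it was 4 (*Atp5d*, *Atp5e*, *Atp5sl* and *Ndufs7*). It was 1 (*Atp5sl*) with RLE factors, with TMM factors computed without the members, and with at least 10 counts in every library. Leaving out 1 rat gave 0 to 2, with *Atp5sl* and *Atp5e* called without MA24 rat 9N. The share of all genes called under the settings other than DESeq2 is not given here, so these counts are not a result about the members. The members above 0 numbered 33 of the 36 kept by the variance filter, against 71 of 75. In non-addicted vs. MA12 they numbered 12 of the 32 kept, against 39 of 75, and 28 to 51 when 1 rat was left out. In non-addicted vs. MA24, DESeq2 called 1 member and 3.3% of all genes. The members above 0 there, 5 in the fit reported, numbered 11 with library totals and 1 of the 47 kept by the variance filter. They numbered 1 to 11 when 1 rat was left out (11 without non-addicted rat 11). The variance filter tests fewer genes, and the cause of the other differences was not tested. Among rats numbered with N, or with the kind of number as a covariate, 0% of all genes passed in MA24 vs. MA12. Sampling error is small for most members, so the spread between 4 rats sets the limit. No paired analysis was possible because the rat numbers name different animals in each group.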

Other observations

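The ratio of *Atp5g1* to *Atp5g3*, chosen after the values were seen and given without a test, was 0.796, 0.85, 0.83 and 0.87 in MA12 rats 21, 31, 4N and 7N, and 0.946, 0.967, 0.941 and 1.03 in MA24 rats 9N, 14N, 15N and 16N. In non-addicted rats 9, 11, 12 and 13 it was 0.867, 0.965, 0.871 and 0.919. A ratio within a rat does not depend on the scaling of libraries, and the MA12 and MA24 rats did not overlap in it. The ratio of *Ndufa10l1* to *Ndufa10* was 0.0553, 0.0444 and 0.0563 in MA12 rat 31 and MA24 rats 14N and 16N, and between 0.00592 and 0.0135 in the other 9 rats.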
